A study of Mus musculus with 8 samples.

Results

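The genes described here serve the cell's response to low oxygen and the breakdown of glucose. The list holds 37 gene symbols, chosen by gene function with earlier results of these data known, and matched by symbol to the array's annotation. A gene was read from its brightest probe set, by the mean of all arrays, among those naming that gene alone, which gave 34 of the 37 among 18193 genes measured in all. Gpi1 had no such probe set, Bnip3l shared its probe sets with a pseudogene, and Gapdh was named alone only by the array's 3 control probe sets.

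CD8+CD44+CD62L- T cells, which are antigen-experienced cells of effector or effector memory type, were purified from MC38 tumors or from lymph nodes (LN) of tumor-bearing mice. MC38 is a mouse colon carcinoma line, injected under the skin of the flank of female C57BL/6 mice aged 6 to 8 weeks with no other genetic change named. The 4 groups were LN T cells without irradiation (LN no IR), LN T cells taken 5 h after 5 Gy of whole-body irradiation (LN IR), and the same for tumor T cells (tumor no IR, tumor IR), with 2 arrays per group. Each array held RNA of cells pooled from 4 mice, so no value belongs to a single animal. Tumors were digested with enzymes and run on Percoll while LN were pressed through a mesh, so tissue and preparation cannot be told apart. Both tissues came from tumor-bearing animals, and both then went through magnetic CD8 selection and FACS. The 11 measured T cell identity genes had means of 11.14 to 11.73 on the LN arrays and 11.00 to 11.40 on the tumor arrays, and none passed the test in a tissue comparison.

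Cells sense oxygen through the prolyl hydroxylases of the EGLN family, which mark the alpha subunits HIF-1α and HIF-2α for destruction when oxygen is present. When oxygen is scarce, the alpha subunits persist, pair with ARNT, and bind hypoxia response elements with the core ACGTG or GCGTG. Their targets include glucose transporters, nearly every glycolytic enzyme, the enzymes that hydroxylate collagen, mitophagy receptors and the hydroxylases themselves. In T cells, activation through the antigen receptor and mTOR also raises HIF-1α and glycolysis in the presence of oxygen.

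The core of the hypoxia response element can be looked for in the promoters. Members and all other RefSeq genes of GRCm38.p6 were searched for ACGTG or GCGTG on either strand in the 250 bases before each annotated start. The letters CACGTG, an E-box that MYC, USF and BHLHE40 also bind, hold ACGTG on both strands. At least 1 match was present for 29 of the 32 members with a window (90.6%), against 41.5% of 27025 genes, with no allowance for base composition. Gpi1, Tpi1 and Eno2 had none of these letters in their windows, and 5 members had no window here (Slc2a3, Epas1, Bnip3l, Ndrg1 and Bhlhe40). It was present in 11 of 12 measured members that were higher in tumor T cells in either comparison below (91.7%) and in 17 of 18 that were not (94.4%). The windows of 5 members that were higher in tumor T cells with and without IR follow, with that of Ldha, which passed in no comparison although it has 5 matches. Each is written 5′ to 3′ toward the gene and ends at the base before the start, and capitals mark the matched letters, which read CACGT or CACGC where the match is on the opposite strand.
Bnip3 (chr7:138909507-138909756, minus strand): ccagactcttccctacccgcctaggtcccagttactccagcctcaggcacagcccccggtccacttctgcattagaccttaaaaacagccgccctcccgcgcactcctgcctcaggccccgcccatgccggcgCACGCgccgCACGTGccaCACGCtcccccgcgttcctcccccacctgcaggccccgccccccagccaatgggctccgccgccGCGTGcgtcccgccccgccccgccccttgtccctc
Ankrd37 (chr8:45999851-46000100, minus strand): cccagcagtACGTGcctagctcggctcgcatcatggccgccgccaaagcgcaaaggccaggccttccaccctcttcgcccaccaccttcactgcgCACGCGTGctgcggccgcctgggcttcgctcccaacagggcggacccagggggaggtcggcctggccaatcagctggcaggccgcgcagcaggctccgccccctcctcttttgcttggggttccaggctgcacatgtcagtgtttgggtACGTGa
P4ha2 (chr11:54100674-54100923, plus strand): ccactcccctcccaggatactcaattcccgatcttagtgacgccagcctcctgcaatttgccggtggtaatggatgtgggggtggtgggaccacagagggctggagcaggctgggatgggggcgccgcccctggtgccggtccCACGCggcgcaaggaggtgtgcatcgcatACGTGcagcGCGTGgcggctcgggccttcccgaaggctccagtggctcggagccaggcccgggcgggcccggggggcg
Slc16a3 (chr11:120948817-120949066, plus strand): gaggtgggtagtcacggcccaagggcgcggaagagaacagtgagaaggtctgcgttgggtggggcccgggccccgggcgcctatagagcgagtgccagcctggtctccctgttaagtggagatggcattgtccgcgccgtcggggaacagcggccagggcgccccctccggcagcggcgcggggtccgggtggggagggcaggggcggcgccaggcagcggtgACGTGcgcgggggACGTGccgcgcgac
Aldoc (chr11:78322823-78323072, plus strand): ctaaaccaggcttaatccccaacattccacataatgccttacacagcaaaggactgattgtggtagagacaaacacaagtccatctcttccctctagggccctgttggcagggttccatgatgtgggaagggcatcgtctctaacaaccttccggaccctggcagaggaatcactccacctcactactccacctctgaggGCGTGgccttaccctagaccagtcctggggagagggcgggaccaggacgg
Ldha (chr7:46845554-46845803, plus strand): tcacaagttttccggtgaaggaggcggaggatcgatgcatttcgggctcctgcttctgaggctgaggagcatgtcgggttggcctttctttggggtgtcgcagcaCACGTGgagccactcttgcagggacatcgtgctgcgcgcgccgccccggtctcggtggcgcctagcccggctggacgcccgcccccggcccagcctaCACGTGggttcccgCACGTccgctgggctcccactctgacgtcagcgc
The Bnip3 window also holds 5 matches, counting each strand of its CACGTG, and that of Ankrd37 holds 4. P4ha2 has 3, Slc16a3 has 2, of which the nearer lies 14 bases before the start, and the first of the 2 annotated starts of Aldoc has 1. A match is a run of letters and not a measured binding site.

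Values below are log2 intensities on the authors' normalised scale, given for replicate 1 and then replicate 2 of a group, and differences are in log2 units with their standard error (SE) from the fit by limma. A gene passed at a Benjamini-Hochberg adjusted p under 0.1 and a difference of at least 1. Levels of different probe sets cannot be compared, so genes are compared only by their differences between groups.

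Many of these genes had higher transcript levels in the cells sorted from tumors than in those sorted from LN, and none had a lower level that passed. Without IR, 11 of the 34 members (32.4%) were higher in tumor T cells, against 4.5% of all genes, and 0 were lower, against 1.04%. With IR, 10 members were higher, against 4.8% of all genes, and 0 were lower, against 2%. The members' median difference was 0.91 without IR and 0.97 with IR, beside -0.09 and 0.06 over all genes. Of the members, 31 had a difference above 0 in each comparison. All 4 tumor arrays lay above all 4 LN arrays for 23 members (67.6%), against 10.9% of all genes, and below them for 0, against 6.82%. Because the list was chosen with earlier results of these data known, these shares describe it and do not test it. In bulk RNA, more cells that express a gene and more RNA per cell cannot be told apart. Macrophage markers and several fibroblast markers were also higher on the tumor arrays, as given below. The part of such cells in these counts was not tested.

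**Figure D1:**
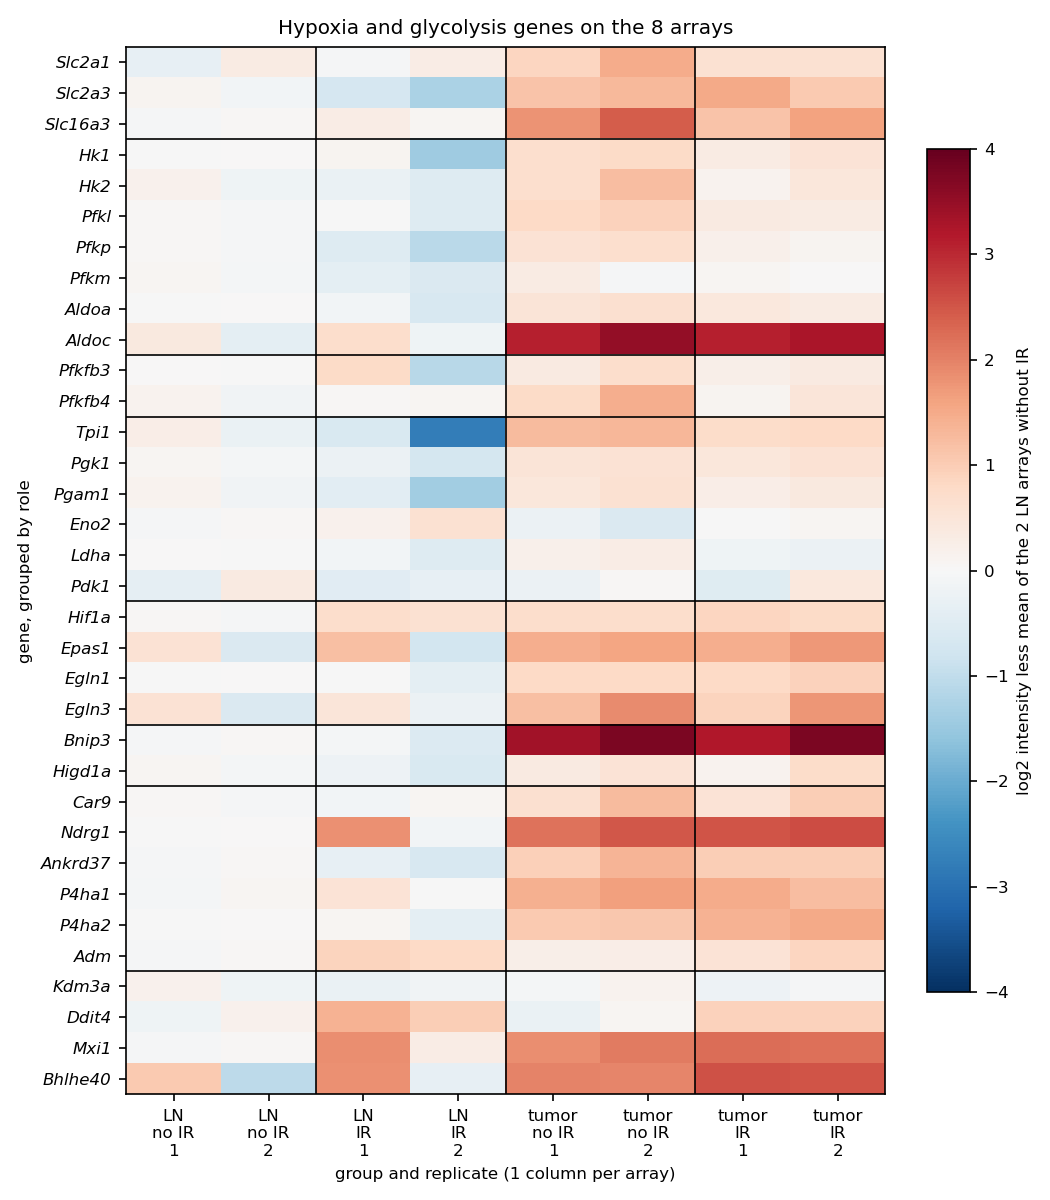
Each row is 1 of the 34 measured genes, grouped by role, and each column 1 of the 8 arrays; colour gives the log2 intensity relative to the average of LN no IR. The 4 tumor columns are red for most rows, deepest for Bnip3 and Aldoc, and LN IR replicate 2 is the bluest column for Tpi1, Pgam1 and Hk1.

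The counts depended on single arrays. Without tumor no IR replicate 2 the first count was 3 (Slc16a3, Aldoc and Bnip3), and without LN no IR replicate 2 it was 7. The share of all genes that passed in either direction moved with it, from 5.54% to 2.97% and 4.19%. Without tumor IR replicate 2 the count with IR was 5, and without LN IR replicate 1 it was 20, where the share of all genes went from 6.8% to 3.12% and 13.3%. Centring the arrays on the T cell identity genes, which moved the median gene by 0.27 without IR and 0.21 with IR, gave 16 members in each comparison, all higher, and raised the share of higher among all passing genes, which went from 81.2% to 90.9% without IR and was 86.5% in place of 70.6% with IR.

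The carriers that move glucose in and lactate out were higher in tumor T cells: 3 of 3 passed without IR and 2 of 3 with IR. Slc16a3 encodes MCT4, which exports lactate from glycolytic cells. It read 7.37 and 7.44 in LN no IR, 7.72 and 7.47 in LN IR, 9.20 and 9.84 in tumor no IR, and 8.55 and 9.03 in tumor IR. The tumor arrays were all higher than the LN arrays, with no overlap. The difference was 2.11 ± 0.26 (SE) without IR (4.32-fold, adjusted p = 0.005) and 1.19 ± 0.26 with IR (2.29-fold, adjusted p = 0.0363).

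Slc2a3 encodes GLUT3, a glucose transporter of high affinity. Its values were 10.43 and 10.22 in LN no IR, 9.66 and 9.08 in LN IR, 11.46 and 11.62 in tumor no IR, and 11.84 and 11.39 in tumor IR. The lowest were those of LN IR, and the tumor arrays again lay above every LN array. The difference was 1.21 ± 0.24 without IR (2.32-fold, adjusted p = 0.0336) and 2.25 ± 0.24 with IR (4.74-fold, adjusted p = 0.00307). The other 3 Slc2a3 probe sets also passed in both, at 1.07 to 1.14 without IR and 1.11 to 2.03 with IR. Slc2a1 encodes GLUT1, the glucose transporter that T cells raise on activation. It read 10.13 and 10.78 in LN no IR, 10.42 and 10.74 in LN IR, 11.31 and 11.94 in tumor no IR, and 11.07 and 11.08 in tumor IR. The Slc2a1 difference passed without IR at 1.17 ± 0.29 (adjusted p = 0.069). With IR the margin between tissues was narrow by this probe set, and the difference of 0.49 had a 95% interval of -0.18 to 1.17. The other 2 Slc2a1 probe sets gave 1.04 and 1.13 without IR, where 1 passed. With IR they gave 0.87 and 0.955, and neither passed.

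Among the enzymes of upper glycolysis, which trap and split the sugar, the aldolase isozyme Aldoc alone passed by its brightest probe set. Dimmer probe sets of Pfkp (1.40), Aldoa (1.08) and Hk1 (1.24) also passed with IR, so the count of passing enzymes depends on the probe set read. All 7 measured members had differences above 0 in both comparisons, with medians of 0.72 and 0.75. Aldoc, the isozyme best known from brain, read 6.34 and 5.54 in LN no IR, 6.65 and 5.78 in LN IR, 9.06 and 9.45 in tumor no IR, and 9.04 and 9.21 in tumor IR. Replicate 1 was above replicate 2 in both LN groups, and the tumor arrays were close together and far above all 4. The difference was 3.31 ± 0.36 without IR (9.95-fold, adjusted p = 0.00299) and 2.91 ± 0.36 with IR (7.52-fold, adjusted p = 0.00482). A second Aldoc probe set passed in both with smaller differences of 2.34 and 1.65.

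Aldoa, the aldolase of most tissues, read 12.25 and 12.30, then 12.16 and 11.63 on the LN arrays without and with IR, against 12.78 and 12.90, then 12.69 and 12.59 on the tumor arrays. Its differences were 0.57 and 0.75, with 95% intervals of 0.11 to 1.03 and 0.29 to 1.21. Its other 4 probe sets gave -0.02 to 0.71 without IR and 0.02 to 1.08 with IR. Whether the isozymes differed from each other was not tested.

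The hexokinases begin the pathway. Hk2, the form induced on T cell activation, read 8.22 and 7.90 in LN no IR, 7.79 and 7.53 in LN IR, 8.74 and 9.30 in tumor no IR, and 8.21 and 8.52 in tumor IR. Its difference of 0.96 ± 0.24 without IR (adjusted p = 0.074) fell just short of the size required, and 0.71 with IR did not pass on p (adjusted p = 0.127). Hk1 read 9.85 and 9.91 in LN no IR, 9.99 and 8.44 in LN IR, 10.55 and 10.64 in tumor no IR, and 10.21 and 10.44 in tumor IR. The LN IR replicates were further apart than the tissues, and neither Hk1 difference passed (0.72, adjusted p = 0.466, and 1.11, adjusted p = 0.177).

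The 3 phosphofructokinase genes encode subunits of the committing step. Pfkp, the platelet form, read 11.15 and 11.06 in LN no IR, 10.59 and 10.02 in LN IR, 11.67 and 11.77 in tumor no IR, and 11.31 and 11.22 in tumor IR. Pfkl, the liver form, read 9.49 and 9.39, 9.44 and 8.93, 10.24 and 10.37, and 9.79 and 9.77 in the same order. For both genes every tumor array was above every LN array, but differences of 0.62 and 0.96 for Pfkp and of 0.86 and 0.59 for Pfkl were under the size required. The muscle form Pfkm read 7.46 and 7.33, 7.01 and 6.83, 7.72 and 7.35, and 7.48 and 7.41, with tissue differences of 0.15 and 0.52. One further Pfkl probe set, dimmer than the one used, gave -0.09 and -0.78.

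Pfkfb3 and Pfkfb4 encode enzymes that set the level of fructose-2,6-bisphosphate, the activator of phosphofructokinase. Pfkfb4 read 7.21 and 6.96 in LN no IR, 7.14 and 7.16 in LN IR, 7.86 and 8.54 in tumor no IR, and 7.19 and 7.58 in tumor IR. The tumor arrays without IR stood above all others, and those with IR were close to the LN arrays. Its difference passed without IR at 1.11 ± 0.25 (adjusted p = 0.0527) and was 0.23 with IR, with a 95% interval of -0.36 to 0.83. Pfkfb3 read 8.76 and 8.70, 9.49 and 7.62, 9.08 and 9.44, and 8.95 and 9.08 in the same order. The LN IR arrays were its highest and its lowest, and its differences of 0.53 and 0.46 did not pass.

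In lower glycolysis, 0 of 6 measured members passed without IR and 2 passed with IR. Tpi1, which interconverts the 2 triose phosphates, read 10.72 and 10.21 in LN no IR, 9.85 and 7.69 in LN IR, 11.72 and 11.78 in tumor no IR, and 11.19 and 11.27 in tumor IR. Its difference was 1.29 ± 0.60 without IR (adjusted p = 0.337) and 2.46 ± 0.60 with IR (5.50-fold, adjusted p = 0.0532). LN IR replicate 2 was far below every other array, and without it the difference with IR was 1.38 and still passed. Pgam1, phosphoglycerate mutase, read 10.62 and 10.36 in LN no IR, 10.08 and 9.09 in LN IR, 10.93 and 11.11 in tumor no IR, and 10.75 and 10.87 in tumor IR. It passed with IR at 1.22 ± 0.30 (adjusted p = 0.0553), but without LN IR replicate 2 the difference was 0.73 and did not pass. That array also had the lowest mean of the 12 measured proliferation genes, at 8.84 against 9.92 to 10.76 on the other LN arrays and 10.29 to 10.41 on the tumor arrays, and the part of proliferation in these values was not tested.

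Pgk1, the first enzyme of glycolysis to yield ATP, read 12.78 and 12.59 in LN no IR, 12.44 and 11.99 in LN IR, 13.21 and 13.27 in tumor no IR, and 13.13 and 13.26 in tumor IR. Every tumor array was the higher, with differences of 0.56 without IR and 0.98 with IR (adjusted p = 0.0245), the latter just under the size required. Ldha makes lactate and is among the brightest probe sets of the list. It read 12.75 and 12.72 in LN no IR, 12.63 and 12.22 in LN IR, 12.93 and 13.02 in tumor no IR, and 12.55 and 12.50 in tumor IR. The tissues overlapped, the differences were 0.24 and 0.10, and the 95% intervals of -0.16 to 0.64 and -0.30 to 0.50 exclude a difference of 1. Pdk1, the kinase that inhibits pyruvate dehydrogenase, gave -0.10 and 0.36. The neuronal enolase Eno2 gave -0.41 and -0.37 at intensities near or below the lower quartile of each array. Gapdh was not tested, and its control probe set nearest the 5′ end read between 12.8 and 13.2 on all 8 arrays. The middle control set read 12.4 to 13.2 and that nearest the 3′ end 12.4 to 12.9. Both were lowest on LN IR replicate 2 and highest on tumor no IR replicate 2.

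Of the oxygen sensors and HIF subunits, 0 of 4 passed without IR and Egln1 alone passed with IR. Egln1 encodes PHD2, the main hydroxylase that acts on HIF-1α. It read 10.34 and 10.39 in LN no IR, 10.36 and 9.96 in LN IR, 11.17 and 11.16 in tumor no IR, and 11.17 and 11.30 in tumor IR. The tumor arrays were tightly grouped and all higher. The difference was 0.80 ± 0.17 without IR, under the size required though with an adjusted p of 0.0416, and 1.07 ± 0.17 with IR (adjusted p = 0.0132).

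Egln3 encodes PHD3, a hydroxylase that HIF itself induces. It read 8.13 and 6.94 in LN no IR, 8.03 and 7.32 in LN IR, 8.75 and 9.44 in tumor no IR, and 8.41 and 9.29 in tumor IR. No tumor array overlapped an LN array, and the LN replicates were wide apart. Differences of 1.56 ± 0.49 (adjusted p = 0.145) and 1.18 ± 0.49 (adjusted p = 0.198) did not pass.

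Hif1a, which encodes HIF-1α, a protein controlled mainly by its stability, read 11.77 and 11.65 in LN no IR, 12.42 and 12.31 in LN IR, 12.41 and 12.42 in tumor no IR, and 12.58 and 12.48 in tumor IR. The LN arrays without IR stood below the other 6. The tissue difference was 0.71 ± 0.14 without IR (adjusted p = 0.0304), under the size required, and 0.17 with IR. The other 3 Hif1a probe sets gave 0.48 to 0.65 without IR and -0.68 to 0.37 with IR. Epas1, which encodes HIF-2α, read 7.32 and 6.14, 7.94 and 5.99, 8.18 and 8.31, and 8.18 and 8.47 in the same order. The LN replicates of Epas1 differed by more than 1 in both groups, and its differences of 1.52 (adjusted p = 0.272) and 1.36 (adjusted p = 0.243) did not pass. A dimmer Epas1 probe set gave smaller differences of 0.46 and 0.25.

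Bnip3, a HIF target that marks mitochondria for removal and can promote cell death, had the largest difference of the 34 members in both comparisons as fitted on all 8 arrays. Without LN no IR replicate 1, Aldoc, whose replicate 2 values in LN lie near the lower quartile of their arrays, was ahead of it (3.71 against 3.53). It read 7.98 and 8.05 in LN no IR, 7.95 and 7.48 in LN IR, 11.39 and 11.77 in tumor no IR, and 11.21 and 11.78 in tumor IR. Every tumor array was more than 3 log2 units above every LN array. The difference was 3.56 ± 0.25 without IR (11.8-fold, adjusted p = 0.000625) and 3.78 ± 0.25 with IR (13.8-fold, adjusted p = 0.000448). Higd1a, a mitochondrial protein induced by hypoxia, had differences of 0.47 and 0.84, neither of which passed.

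**Figure D2:**
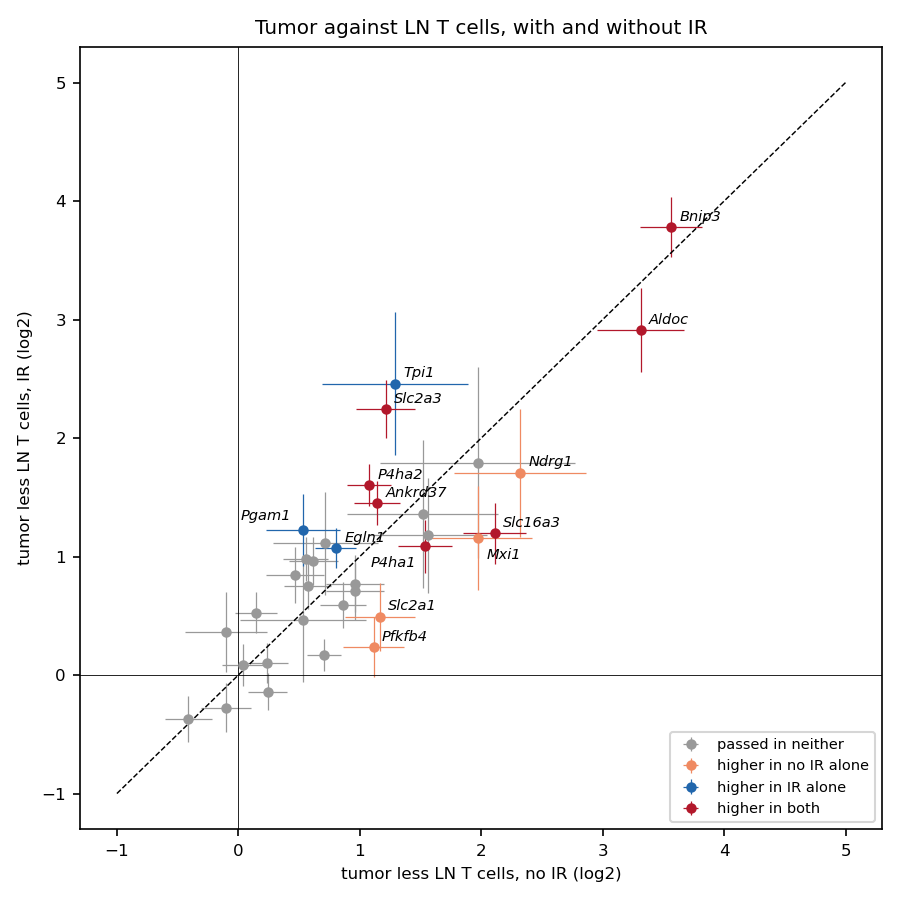
Each point is 1 of the 34 measured genes, with the tumor less LN difference (log2) without IR on the horizontal axis and with IR on the vertical axis; bars are 1 SE and the broken line marks equal differences. Bnip3 and Aldoc stand apart at the upper right, and 7 genes (dark red) passed in both comparisons.

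The targets that act on matrix, signalling and pH gave 4 of 6 higher in tumor T cells without IR and 3 of 6 with IR. P4ha1 and P4ha2 encode the catalytic subunits of collagen prolyl hydroxylase. P4ha1 read 8.84 and 8.998 in LN no IR, 9.48 and 8.90 in LN IR, 10.35 and 10.57 in tumor no IR, and 10.41 and 10.14 in tumor IR, and the tissues did not overlap. Its difference was 1.54 ± 0.22 without IR (adjusted p = 0.00987) and 1.09 ± 0.22 with IR (adjusted p = 0.0311). A dimmer P4ha1 probe set gave 1.14 and 0.27.

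P4ha2 read 5.00 and 5.01 in LN no IR, 5.07 and 4.62 in LN IR, 6.07 and 6.10 in tumor no IR, and 6.39 and 6.51 in tumor IR. The LN values lay below the lower quartile of their arrays (5.45 to 5.59), where intensity is mostly background, so that the differences of 1.08 (adjusted p = 0.016) and 1.60 (adjusted p = 0.00337) give the direction better than the size. Fibroblast genes moved with tissue as well: 6 of the 12 fibroblast markers were higher in tumor without IR and 7 with IR, and their mean was 6.18 to 6.46 on the LN arrays and 8.19 to 8.65 on the tumor arrays. Collagen hydroxylases are highly expressed in fibroblasts, and the part of such cells in the P4ha1 and P4ha2 values was not tested.

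Ankrd37, a small ankyrin repeat protein and well-known HIF-1 target, read 8.40 and 8.50 in LN no IR, 8.14 and 7.82 in LN IR, 9.40 and 9.80 in tumor no IR, and 9.44 and 9.42 in tumor IR. Both tissue differences passed, at 1.14 ± 0.19 (adjusted p = 0.0159) and 1.45 ± 0.19 (adjusted p = 0.00594), with no overlap. Ndrg1, a stress-responsive gene also linked to T cell anergy, read 8.62 and 8.64 in LN no IR, 10.46 and 8.51 in LN IR, 10.79 and 11.10 in tumor no IR, and 11.14 and 11.24 in tumor IR. LN IR replicate 1 approached the tumor arrays while its replicate did not. Ndrg1 passed without IR at 2.32 ± 0.54 (4.99-fold, adjusted p = 0.0575) but not with IR at 1.71 ± 0.54 (adjusted p = 0.107) by its brightest probe set. Its other 4 probe sets gave 2.04 to 2.41 without IR, where all 4 passed, and 1.24 to 2.07 with IR, where 2 passed.

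Car9, a surface carbonic anhydrase that is a common hypoxia marker of tumors, read 5.31 and 5.24 in LN no IR, 5.18 and 5.36 in LN IR, 5.93 and 6.54 in tumor no IR, and 5.83 and 6.25 in tumor IR. The tumor arrays were higher but dim, and differences of 0.96 and 0.77 were under the size required. Adm, the peptide hormone adrenomedullin, gave 0.24 and -0.14.

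Of the regulators of transcription and growth, Mxi1 passed without IR and none with IR. Mxi1 encodes an antagonist of MYC. It read 8.49 and 8.58 in LN no IR, 10.39 and 8.82 in LN IR, 10.40 and 10.62 in tumor no IR, and 10.77 and 10.75 in tumor IR. As with Ndrg1, LN IR replicate 1 came close to the tumor arrays. The difference was 1.98 ± 0.44 without IR (3.93-fold, adjusted p = 0.0487) and 1.15 ± 0.44 with IR (adjusted p = 0.167). A second Mxi1 probe set gave 0.82 and 0.01.

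Bhlhe40, a transcription factor active in resident and cytokine-producing T cells as well as in hypoxia, read 11.45 and 9.38 in LN no IR, 12.25 and 10.08 in LN IR, 12.41 and 12.37 in tumor no IR, and 12.97 and 12.94 in tumor IR. The LN replicates were about 2 log2 units apart, with replicate 1 close to the tumor arrays in both groups. Differences of 1.97 ± 0.80 (adjusted p = 0.269) and 1.79 ± 0.80 (adjusted p = 0.234) did not pass. Ddit4 and the histone demethylase gene Kdm3a gave tissue differences between -0.28 and 0.09.

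The 2 replicates differed by more than 1 for 3 members in LN no IR (Epas1, Egln3 and Bhlhe40) and for 7 in LN IR (Hk1, Pfkfb3, Tpi1, Epas1, Ndrg1, Mxi1 and Bhlhe40), but for 0 in either tumor group. The members' median gap between replicates was 0.13 in LN no IR, 0.45 in LN IR, 0.22 in tumor no IR and 0.13 in tumor IR, beside 0.19, 0.27, 0.14 and 0.14 for all genes.

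In all, 7 members passed in both tissue comparisons (Slc2a3, Slc16a3, Aldoc, Bnip3, Ankrd37, P4ha1 and P4ha2). By the probe sets used, Slc2a1, Pfkfb4, Ndrg1 and Mxi1 passed without IR alone, and Tpi1, Pgam1 and Egln1 with IR alone. Slc16a3, Aldoc and Bnip3 without IR, and Slc2a3, Aldoc, Bnip3, Ankrd37 and P4ha2 with IR, passed in every other setting that kept their probe sets. Without IR, tumor no IR replicate 2 was needed for the other 8, with LN no IR replicate 2 also needed for Slc2a3, Pfkfb4, Ndrg1 and Mxi1, LN no IR replicate 1 for Slc2a1, Pfkfb4, Ndrg1 and Mxi1, and tumor no IR replicate 1 for Slc2a3, Ndrg1, P4ha2 and Mxi1. Slc2a1, Ndrg1 and Mxi1 were also lost without either tumor IR replicate, which enters through the shared estimate of the spread. With IR, tumor IR replicate 2 was needed for Slc16a3, Tpi1, Pgam1, Egln1 and P4ha1, LN IR replicate 2 also for Pgam1, Egln1 and P4ha1, and tumor IR replicate 1 for Tpi1, Pgam1 and P4ha1. Tpi1 and Pgam1 were also lost without either tumor no IR replicate. An adjusted p under 0.05 left 8 members in each comparison. That limit lost Slc2a1, Pfkfb4 and Ndrg1 without IR, and Tpi1 and Pgam1 with IR. Slc2a1 without IR was also lost by its most variable probe set and with the 4 arrays compared alone. For calls with IR, array weights lost Slc16a3, cyclic loess lost Egln1, and the 4 arrays alone lost Tpi1, Pgam1 and P4ha1. Over all settings the differences of those that were lost lay between 0.77 (Pfkfb4) and 2.59 (Ndrg1) without IR, and between 0.73 (Pgam1) and 3.54 (Tpi1) with IR, with no change of sign.

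That the tissue difference itself changed with IR was tested as the difference between the IR effects, and passed for 0 of 34 members and 0% of all genes. At an unadjusted p under 0.05 it held 4 members and 1024 genes, and the robust fit of limma also gave 0 members. Without LN IR replicate 1 it passed for 4 (Slc2a3, Hk1, Tpi1 and Pgam1) and for 4.23% of all genes.

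Macrophage transcripts were also higher on the tumor arrays. All 13 measured macrophage markers passed without IR and 12 with IR, with median differences of 4.45 and 3.38, and their mean was 5.89 to 6.40 on the LN arrays. On the tumor arrays it was 10.23 and 10.99 without IR and 8.81 and 10.30 with IR. C1qa, a complement component made by macrophages, read 5.53 to 6.88 on the LN arrays and 10.59 to 12.56 on the tumor arrays. Macrophages express glycolytic and HIF target genes too. Of the 11 carcinoma markers 2 passed as higher in both comparisons, Cdh1 (2.97 and 4.52) and Sox9 (1.85 and 2.05), and the list's mean was 6.41 to 6.60 on the LN arrays and 6.85 to 7.16 on the tumor arrays. B cell markers went the other way, with 9 of 9 below 0 in both comparisons, 4 passing as lower without IR and 3 with IR, and a mean of 7.44 to 8.15 on the LN arrays and 6.31 to 6.54 on the tumor arrays. The part of either cell type in the tissue differences was not tested.

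The mean of the 7 members that passed in both comparisons was 9.56 and 9.88 in tumor no IR and 9.55 and 9.64 in tumor IR. These 7 were picked by a test that favours close replicates, so their closeness does not measure the macrophage part. Between replicates the macrophage mean differed by 0.76 in tumor no IR and by 1.48 in tumor IR, and was higher on replicate 2 in both. In tumor no IR each of the 7 genes was also higher on replicate 2. In tumor IR, Slc16a3, Aldoc, Bnip3 and P4ha2 were higher on replicate 2. There Slc2a3 and P4ha1 were lower on replicate 2, and Ankrd37 was almost level at 9.44 and 9.42. The order of the 4 tumor arrays was that of the macrophage mean for 6 members (Aldoc, Pfkfb3, Pgk1, Egln3, Car9 and Kdm3a), which is 17.6% of the members and compares with 3.64% of all genes. It was that of the fibroblast mean for Bhlhe40 alone, 2.94% against 20.7%. The part of macrophage RNA in the tissue differences was not tested.

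**Figure D3:**
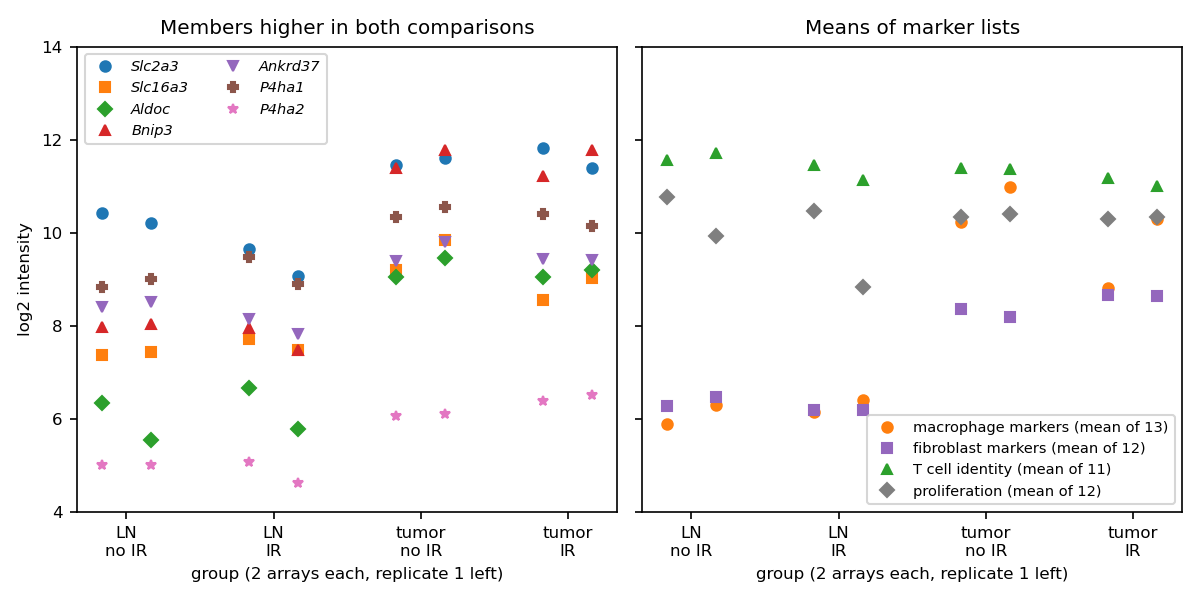
Log2 intensity on each of the 8 arrays of the 7 genes higher in tumor T cells in both comparisons (left) and the mean of 4 marker lists (right), 1 point per array. The T cell identity mean stays between 11.00 and 11.73 while the macrophage mean goes from at most 6.40 on LN arrays to at least 8.81 on tumor arrays, and each of the 7 genes is higher on every tumor array than on every LN array.

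IR changed few of these genes within 5 h. In LN T cells, 1 member rose, against 0.786% of all genes, and 0 fell, against 0.264%. In tumor T cells 0 rose, against 0.0934%, and 0 fell, against 0.0055%. At an unadjusted p under 0.05, 11 members (32.4%) in LN and 7 (20.6%) in tumor T cells differed, against 14.3% and 16.6% of all genes. The members had a median difference of -0.19 for LN and -0.15 for tumor T cells, beside 0.01 and 0.09 for all genes. The treatment itself was evident, since the 4 measured genes of the irradiation check had a mean of 9.15 to 10.10 on arrays without IR and 11.69 to 12.04 with IR.

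Ddit4 was the member that passed, as a rise in LN T cells. It encodes REDD1, an inhibitor of mTORC1 that is induced by hypoxia, glucocorticoids and p53. It read 9.69 and 10.02 in LN no IR, 11.24 and 10.86 in LN IR, 9.58 and 9.93 in tumor no IR, and 10.77 and 10.78 in tumor IR. Both IR arrays lay above both arrays without IR in each tissue. In LN T cells the difference was 1.19 ± 0.21 (2.29-fold, adjusted p = 0.0741). In tumor T cells it was 1.02 ± 0.21 (adjusted p = 0.249), and the robust fit passed both. The LN call held in 7 of 18 other settings and was lost under the replicate block (adjusted p = 0.109) and when any array but LN IR replicate 2 was left out, with values from 1.00 to 1.54 over all 18.

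Adm followed with 6.31 and 6.38 in LN no IR against 7.24 and 7.13 in LN IR, and 6.56 and 6.60 in tumor no IR against 6.89 and 7.21 in tumor IR. Its difference in LN T cells was 0.84 ± 0.16 (adjusted p = 0.0876), under the size required, and 0.46 in tumor T cells (adjusted p = 0.3). By the other Adm probe set, which was dimmer, the LN value was only 0.33 (adjusted p = 0.393). Its tumor value was 0.40 (adjusted p = 0.318), so neither passed. For Hif1a the LN value was 0.65 ± 0.14 (adjusted p = 0.113) and the tumor value 0.11, with a 95% interval of -0.21 to 0.44 for the latter.

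The glycolytic members mostly had values below 0 after IR, though none passed. In LN T cells 6 of 7 upper and 5 of 6 lower glycolysis genes were below 0, with medians of -0.40 and -0.44, and in tumor T cells 7 of 7 and 4 of 6, with medians of -0.27 and -0.13. Centring on the T cell identity genes moved the median of all genes by 0.35 for LN and by 0.29 for tumor T cells, to 0.36 and 0.38. On that scale the tumor medians of the glycolytic groups were 0.02 and 0.17 and the LN medians -0.05 and -0.09, so the tumor sign turned while all 4 stayed below the median of all genes. With cyclic loess 6 of 7 upper glycolysis genes were below 0 in LN and 7 of 7 in tumor T cells. Of the lower glycolysis genes, 5 of 6 were below 0 in LN but only 3 of 6 in tumor T cells on that scale. Both IR arrays lay below both arrays without IR for 12 members in LN T cells, against 19.5% of all genes, and above them for 6, against 21.8%. In tumor T cells they lay below for 11 members, against 26%, and above for 8, against 41.4%.

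For Slc2a3 the LN difference was -0.96 ± 0.24 (adjusted p = 0.163) and the tumor difference 0.07, but its other 3 probe sets gave -0.75 to -0.03 in tumor T cells. Tpi1 had -1.69 ± 0.60 (adjusted p = 0.272) and -0.53, and Pfkfb4 0.07 and -0.81 ± 0.25 (adjusted p = 0.296). The LN IR replicates mattered here. Without LN IR replicate 1, 6 members were lower after IR in LN T cells (Slc2a3, Hk1, Pfkp, Pfkfb3, Tpi1 and Pgam1), while the share of all genes that passed in either direction went from 1.05% to 9.83%. Without LN IR replicate 2, Ddit4, Mxi1 and Ndrg1 were higher, with 1.42% of all genes passing. For the genes most raised in tumor T cells the IR effect there did not pass, with 95% intervals of -0.68 to 0.52 for Bnip3 and -0.97 to 0.71 for Aldoc.

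**Figure D4:**
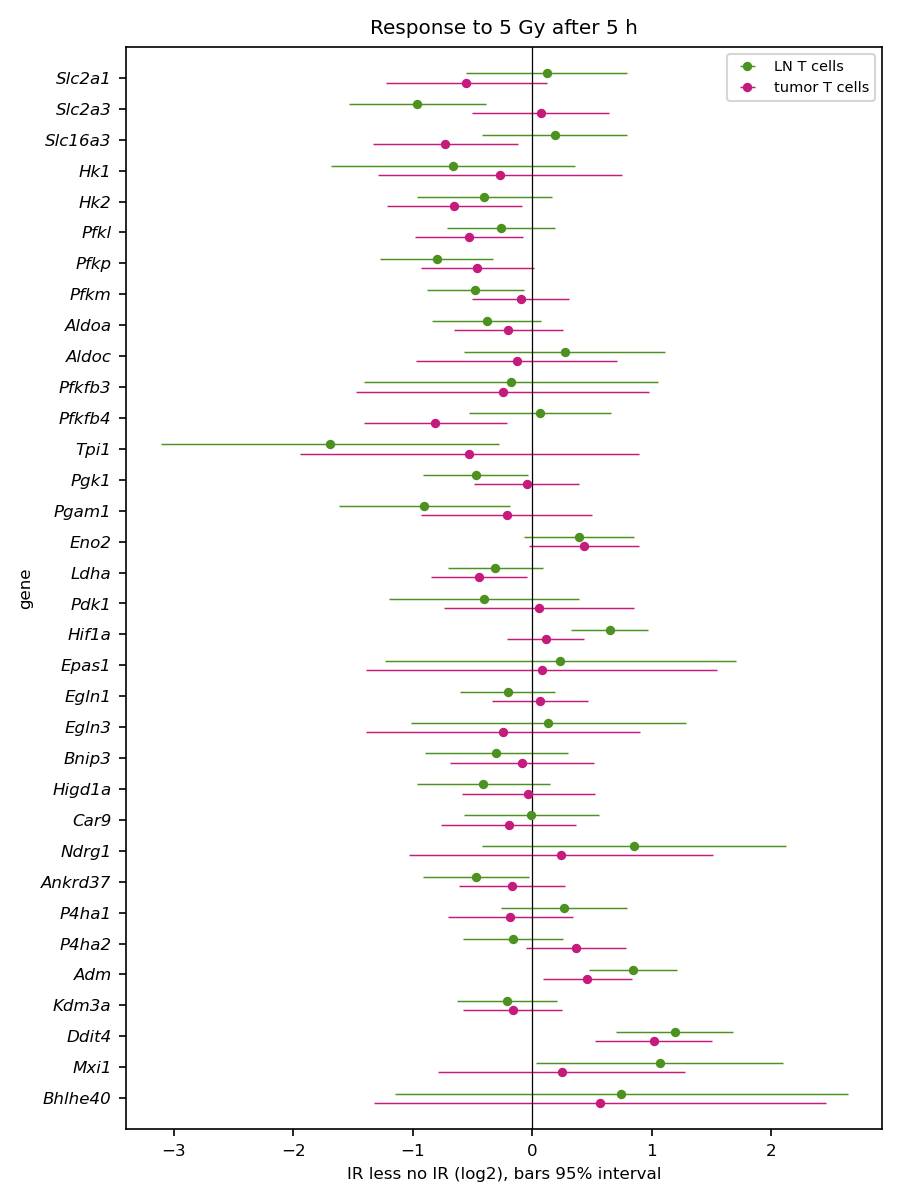
IR less no IR difference (log2) of each of the 34 measured genes in LN T cells (green) and tumor T cells (magenta); points are the difference of group means over 2 arrays each and bars the 95% interval from the fit. Ddit4 stands to the right in both tissues, at 1.19 and 1.02, and only its LN value passed the test.

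Other genes of the same pathways were read from 2 further lists. Of 27 measured glycolysis genes outside the 37, 1 was higher in tumor T cells without IR and 0 with IR, and 0 and 1 were lower. Of all genes, 4.5% were higher without IR and 4.8% with IR, and 1.04% and 2% were lower. Slc16a7, which encodes the monocarboxylate carrier MCT2, passed without IR (2.39, adjusted p = 0.0219) and gave 0.70 with IR. Its LN values of 4.67 to 5.70 were dim, and the call was lost without LN no IR replicate 1 or either tumor no IR replicate. Ldhb, the lactate dehydrogenase subunit that favours pyruvate, read 8.64 and 8.64 in LN no IR, 11.42 and 10.84 in LN IR, 8.26 and 8.54 in tumor no IR, and 8.91 and 8.63 in tumor IR. It rose by 2.49 after IR in LN T cells (adjusted p = 0.00797), where the tumor value was 0.37, and was lower in tumor than in LN T cells with IR (-2.36, adjusted p = 0.00186). The IR effects differed by -2.12 for Ldhb, with an adjusted p of 0.383, so a difference between tissues did not pass.

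Of 33 measured genes of the HIF pathway and hypoxia outside the 37, 8 were higher in tumor T cells without IR and 8 with IR, and 0 were lower in either. The shares of all genes were 4.5% and 4.8% for higher, and 1.04% and 2% for lower. Vegfa, the vascular growth factor and classical HIF target, had differences of 3.14 without IR (adjusted p = 0.000504) and 2.71 with IR (adjusted p = 0.000808). Arnt2, a partner subunit of HIF, had 2.23 and 2.03, and Plin2, which coats lipid droplets, 2.03 and 1.84, each of which passed. Hmox1, heme oxygenase 1, passed without IR (2.03, adjusted p = 0.0109) and gave 0.64 with IR. It read 8.66 and 9.29 in tumor no IR and 7.96 and 8.55 in tumor IR, where the macrophage mean was also the lower, and the part of macrophage RNA in it was not tested. Plod2, a collagen lysyl hydroxylase, passed without IR (1.75, adjusted p = 0.0972), and Tfrc, the transferrin receptor, with IR (1.78, adjusted p = 0.076), each lost when any tumor array was left out. After IR 0 of these 33 genes passed in either tissue. In LN T cells 1 had an adjusted p under 0.1 with a difference under the size required. At an unadjusted p under 0.05 there were 6 in each tissue, beside 14.3% of all genes in LN and 16.6% in tumor T cells.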

How the data were processed

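Gene expression was measured on 8 Affymetrix whole-genome mouse arrays, 2 for each of 4 groups. The authors processed the arrays with RMA, which corrects background, quantile-normalises and summarises probe sets, and deposited log2 intensities of 45101 probe sets. For RMA, a version was not given in the sources used here. Quantile normalisation fixes each array's distribution, so a shift shared by most genes cannot be seen. The values were used as deposited.

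A total of 34945 probe sets name 1 gene, 932 several and 9160 none, and 64 are controls. limma 3.58.1 in R 4.3.3 fitted the 4 group means by least squares over the 35877 annotated probe sets with empirical Bayes variances (4 residual and 3.13 prior degrees of freedom). P-values were two-sided and adjusted by the Benjamini-Hochberg method over these 35877. The thresholds, an adjusted p under 0.1 and a log2 difference of at least 1, were those of the study's limma step, which fitted robustly. The study also applied a second method, SAM, and took the genes that both gave, which was not done here. On data simulated with no effect for tumor against LN without IR, an unadjusted p under 0.05 came up for 10.3% of probe sets by the robust fit and 5.31% by least squares, so least squares was used, with the robust fit as an alternative. The members and gene lists were chosen with earlier results of these data known. Any member may be named, with values on every array for those that passed and for isozymes, and of the other pathway genes the 6 per list with the largest differences that passed. Alternatives were a robust fit, a replicate block, the 4 arrays compared alone, array weights, the most variable probe set of a gene, leaving out dim probe sets, cyclic loess, centring on T cell identity genes, other thresholds, and leaving out each array. Promoter sequences came from RefSeq (GRCm38.p6), matched by symbol for 32 of the 37 genes. The array number limits precision. The series text describes independent experiments, but the labels do not say which arrays share one, so p-values measure the spread between these arrays.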

Additional observations from a re-analysis of the deposited data

Results flagged for a closer look

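Slc16a3, the lactate exporter MCT4, was picked out because both LN arrays with IR lay above both without IR while both tumor arrays with IR lay below both without IR. The IR effect was 0.19 for LN T cells and -0.73 for tumor T cells. The difference between them was -0.91, which did not pass (adjusted p = 0.782). Such opposite movement was seen for 4.48% of all genes and for 1 member (2.94%).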

How the results depend on the processing

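Over 624 values of single passing genes under an alternative, 543 still passed, 81 had the same direction but did not pass, and 0 changed sign. The replicate block gave 11 members for tumor against LN without IR, 10 with IR, 0 for IR in LN T cells, 0 for IR in tumor T cells and 0 for the difference between IR effects. The numbers paired arrays within a tissue (correlation of replicate differences 0.43 in LN and 0.43 in tumor) but not across tissues (-0.14 to 0.07), and a crossed block, added after seeing the data, gave 12 members for tumor against LN with IR. Leaving out 1 array gave 3 to 15 members for tumor against LN without IR, 5 to 20 with IR, 0 to 6 for IR in LN T cells, 0 to 1 for IR in tumor T cells and 0 to 4 for the difference between IR effects. An array left out leaves 1 in its group, assumed to vary like the others. Centring on T cell identity genes gave 16 members for tumor against LN with IR, 2 for IR in LN T cells and 1 for IR in tumor T cells. For IR in LN T cells the robust fit gave 3 (2 higher and 1 lower), no fold limit gave 2, and the 4 arrays alone, array weights and an adjusted p under 0.05 each gave 0. For IR in tumor T cells the robust fit, the 4 arrays alone and array weights each gave 1, which was Ddit4. Beyond what the settings themselves change, the cause was not tested. With 2 arrays per group only large differences can pass, and values of P4ha2, Car9 and Eno2 near background understate differences.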
